A study of Rattus norvegicus with 21 samples.

Results

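The neurotransmitter receptor genes of the rat anterior pituitary gland were examined here, namely the genes for receptor subunits and receptors of GABA, glutamate, glycine, acetylcholine, serotonin, noradrenaline and extracellular nucleotides. Members were chosen by gene symbol alone, from probe sets with a single symbol that begins with the family name (Gabr, Gabbr, Gria, Grik, Grin, Grm, Glra, Glrb, Chrn, Chrm, Htr, Adra, Adrb, P2rx or P2ry), and dopamine receptors, Gabarap, Htra and Adrbk genes were left out. The rule found 102 genes in 14 families among 14217 genes with a symbol of their own, represented by 153 probe sets. The animals were male rats of 3 inbred strains, ACI, Copenhagen (here COP) and Brown Norway (here BN), which received a silastic implant at the age of 9 weeks and were killed when 21 weeks old. The implant was empty in control rats and held 5 mg of diethylstilbestrol (DES), a synthetic estrogen, in treated rats. All rats, controls included, had the implant surgery and an injection of BrdU at 50 mg/kg 4 hours before death. Each strain had 3 control and 4 DES arrays, 21 in all, and every strain was compared with its own controls.

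Receptors for transmitters are of 2 kinds. Ionotropic receptors are ion channels built from several subunits, and the mix of subunits sets how they gate and what they conduct, whereas metabotropic receptors act through G proteins. The hormone cells of the anterior pituitary are electrically excitable, and GABA, glutamate, acetylcholine, serotonin and ATP reach them from the hypothalamus, the blood and neighbouring cells. Estrogen acts on this gland through the estrogen receptor, most visibly in the prolactin-secreting lactotrophs.

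The signal of an array probe set is an intensity on a linear scale, with every array scaled by the authors to a common trimmed mean. Changes are given on the log2(signal + 16) scale, which understates the change of dim genes, and a gene was called changed when its limma p value, adjusted over all probe sets tested, was under 0.05. Of the 102 genes, 55 read above the 40th percentile of signals on 3 or more arrays and were tested, and 47 were not. The lowest 40th percentile over the arrays was a signal of 67, and values below it are described here as near the floor. A gene of this kind that is high in 1 group only passed the filter because of that group, so the number tested is not a number of receptors in use. When all 102 genes were tested without a filter, the 47 dim genes added 3 calls in ACI, 4 in COP and 1 in BN. In whole-gland RNA, fewer cells of a type and less RNA per cell cannot be told apart.

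Hormone transcripts of the anterior lobe dominated all arrays, and the summed signal of 6 lactotroph markers lay between 39895 and 83603. The glial gene Gfap, named after its values were seen, read 647.5 on COP control array 3 and at most 149 on the other arrays, and the neural lobe gene Oxt, named likewise, had a mean of 173 in the COP controls against 30.7 and 54.1 in those of ACI and BN. Among the BN rats, DES arrays 3 and 4 stood apart from DES arrays 1 and 2 on the second principal component (70.7 and 65.2 against 30.1 and 29.8), and results in BN were therefore also computed with each pair alone. That split was chosen after the data were seen.

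DES changed receptor genes in both directions in every strain. In ACI, 12 of the 55 tested genes rose and 15 fell, which is 49.1% of them, against 55.6% of all 11744 genes tested (23.1% higher and 32.4% lower). In COP 15 rose and 15 fell (54.5%, against 49.7% of all genes, 21.6% higher and 28.1% lower). In BN 11 rose and 9 fell (36.4%, against 39.5% of all genes, 16.9% higher and 22.6% lower). These shares were near the background, so the receptor genes were not set apart by how many of them changed. Control and DES readings were fully separate for 27 of the 55 genes in each strain, and this held for 59.7%, 55.2% and 42.2% of all genes in ACI, COP and BN. The median log2 change over the tested members was -0.16, 0.16 and 0.05 in ACI, COP and BN, beside -0.13, -0.08 and -0.06 over all genes. Centring every array on its median moved the all-gene median in ACI to 0.08 and gave 12 rises and 12 falls among the members there, while over all genes 3632 rose and 2662 fell, against 2718 and 3806 without centring.

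The 8 members that rose in every strain were Grik1, Htr5b, Gabra2, Gria1, P2ry12, Chrm4, P2ry14 and Grin1, and 11.6% of all genes tested did so. The 5 that fell in every strain were Gabrb2, P2rx2, Gabrb1, P2ry2 and P2ry1, as did 15.9% of all genes. Set against these shares of 55 genes, the number of members that rose in every strain was slightly above the background, and the number that fell was below it. Neither departure was tested. No member was called in opposite directions in different strains, and 0.971% of all genes were. A further 9 genes were called in ACI and COP and not in BN, 7 in COP only, 3 in BN only and 2 in ACI only. The rest of the 38 called genes were called in BN and another strain. No share over all genes was computed for these patterns. Over all genes, too, fewer were called in BN (39.5%) than in ACI (55.6%) or COP (49.7%). In no strain were 17 members called (31.4% of all genes). Calls are those of 1 probe set per gene. Of 10 genes with over 1 tested probe set, the probe sets differed in call for 5 in ACI, 4 in COP and 1 in BN. Among the 17, they differed for P2rx3 in ACI, Htr2a in COP and Grin2a in BN, named after their values were seen. No gene had probe sets called in opposite directions. The plot of log2 changes by family gives every gene that was called at least once.

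**Figure D1:**
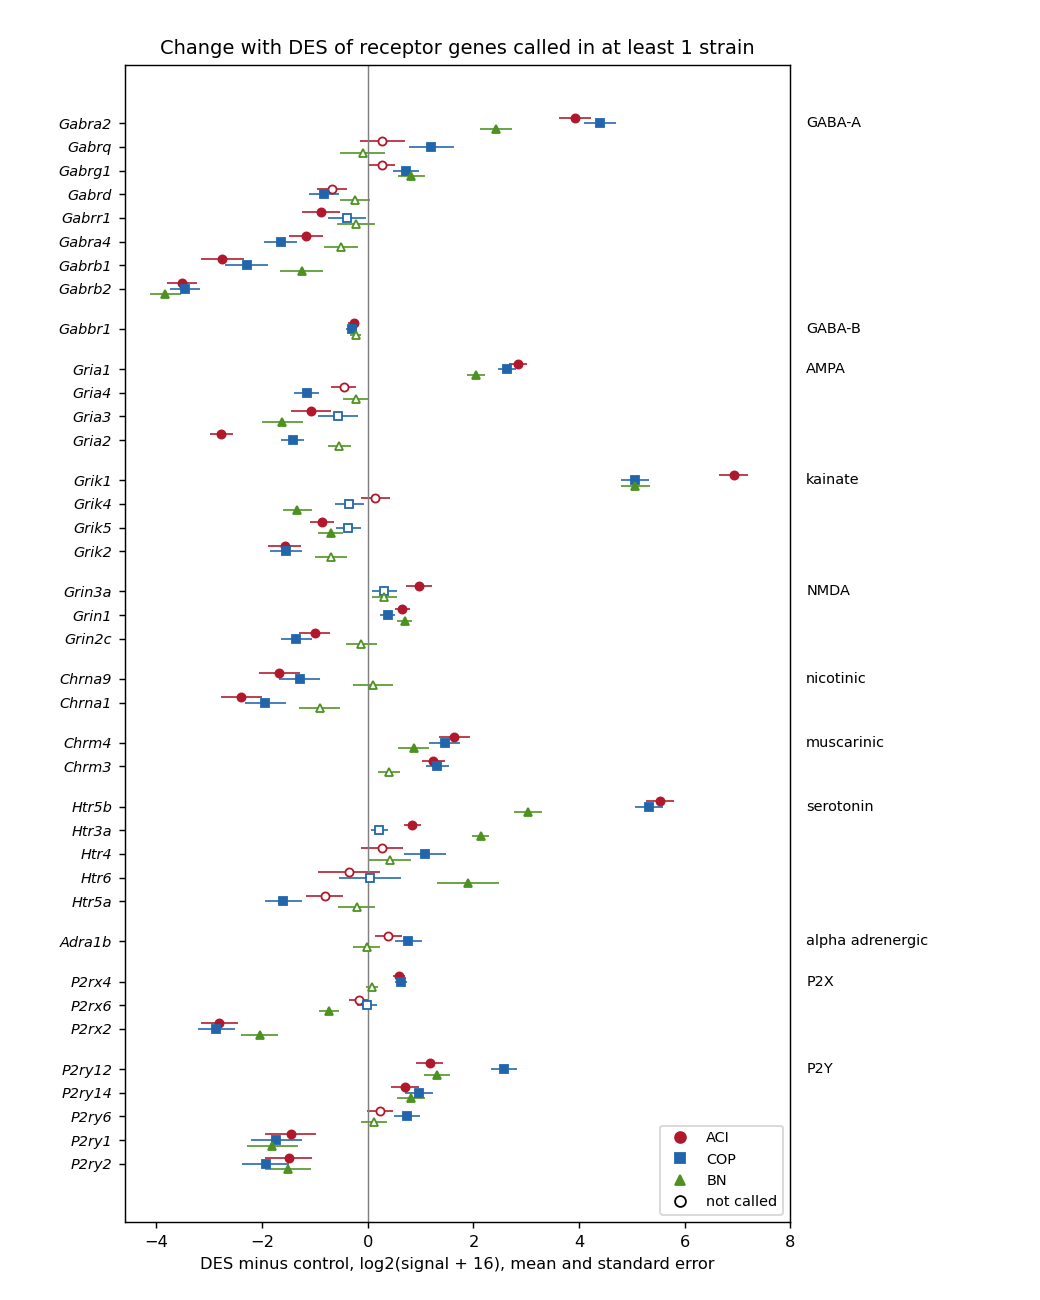
Change with DES of the 38 receptor genes called in at least 1 strain, grouped by family. The horizontal axis is the DES mean minus the control mean of log2(signal + 16), with bars for the standard error, in ACI (circles), COP (squares) and BN (triangles), and open symbols mark changes that were not called. Grik1, Htr5b and Gabra2 lie far to the right in all strains and Gabrb2 far to the left.

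The largest rise in ACI and BN belonged to Grik1, which encodes a subunit of the kainate class of glutamate-gated channels. Its signal was 5.2, 14.3 and 12.6 in the ACI controls and 3520.1, 3006, 3218 and 3043 in the ACI DES rats. The COP controls read 28.3, 51.5 and 54.0, and the COP DES rats 1930.0, 1915, 1795 and 2221. In BN the controls read 42.0, 6.0 and 3.0 and the DES rats 1162, 1098, 701 and 925. All 9 control arrays were thus near the floor and all 12 DES arrays were far above it, without overlap in any strain. The DES mean was 47.7 times the near-floor signal of 67 in ACI, 29.3 times in COP and 14.5 times in BN. The log2 change was 6.93 (SE 0.27) in ACI, 5.06 (SE 0.27) in COP and 5.07 (SE 0.27) in BN, with adjusted p values of 1.2e-14, 2.4e-12 and 5.3e-12. A two-sided exact permutation test over the 35 splits of 4 and 3 arrays gave p = 0.0286 in each strain, the smallest value that it can give. Groups this far apart give that value in any case, so the test adds no support of its own.

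Htr5b, which encodes a G protein-coupled serotonin receptor, had the largest rise in COP and the next largest in ACI and BN. Its ACI controls read 10.6, 31.6 and 39.7 and its ACI DES rats 1935, 1936, 2129 and 1622. In COP the controls read 49.7, 14.3 and 12.5 and the DES rats 1566, 1546, 1811 and 1222. In BN the controls read 22.0, 37.1 and 41.8, and the DES rats 384, 378, 339 and 436. Every control was again near the floor, and the BN DES rats stood well below the ACI and COP DES rats. The DES mean was 28.4, 22.9 and 5.74 times the near-floor signal in ACI, COP and BN. The rise was 5.53 (SE 0.26), 5.32 (SE 0.26) and 3.03 (SE 0.26) on the log2 scale.

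The 250 bases before the annotated start are shown for Grik1 and Htr5b, the members with the 2 largest rises in each strain, and for Gabrb2, the member with the largest fall in each strain, because the treatment was an estrogen. The estrogen receptor binds a palindrome written GGTCANNNTGACC, and the motif GGTCA, searched on both strands, is contained in it. Capitals mark GGTCA or its reverse complement TGACC, and the sequences come from RefSeq (build GRCr8), read 5′ to 3′ on the strand of the gene. Grik1 lies at chr11:41056504-41056753 (minus strand), Htr5b at chr13:35252587-35252836 (minus strand) and Gabrb2 at chr10:27439543-27439792 (plus strand).
Grik1: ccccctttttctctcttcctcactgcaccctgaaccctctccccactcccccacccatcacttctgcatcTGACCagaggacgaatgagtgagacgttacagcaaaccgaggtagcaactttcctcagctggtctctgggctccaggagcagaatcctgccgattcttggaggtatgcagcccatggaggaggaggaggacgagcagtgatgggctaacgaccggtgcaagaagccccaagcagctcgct
Htr5b: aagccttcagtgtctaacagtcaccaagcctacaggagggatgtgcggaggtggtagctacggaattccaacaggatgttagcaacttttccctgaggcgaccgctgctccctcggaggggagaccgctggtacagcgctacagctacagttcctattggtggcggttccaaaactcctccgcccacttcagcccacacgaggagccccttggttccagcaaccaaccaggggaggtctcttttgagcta
Gabrb2: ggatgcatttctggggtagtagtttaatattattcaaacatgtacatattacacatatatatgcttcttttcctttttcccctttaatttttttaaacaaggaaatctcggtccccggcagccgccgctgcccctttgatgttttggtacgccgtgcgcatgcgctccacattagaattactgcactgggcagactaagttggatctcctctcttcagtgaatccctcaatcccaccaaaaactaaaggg
Grik1 has 1 match, which begins 180 bases before the start, and neither of the other windows holds these letters. The motif GGTCA occurred in 18 of the 76 member genes with such a window (23.7%) and in 35.2% of all 27457 windows. The full palindrome occurred in 6 of all windows and in 0 of the 76, which says only that these letters are not in this stretch.

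**Figure D2:**
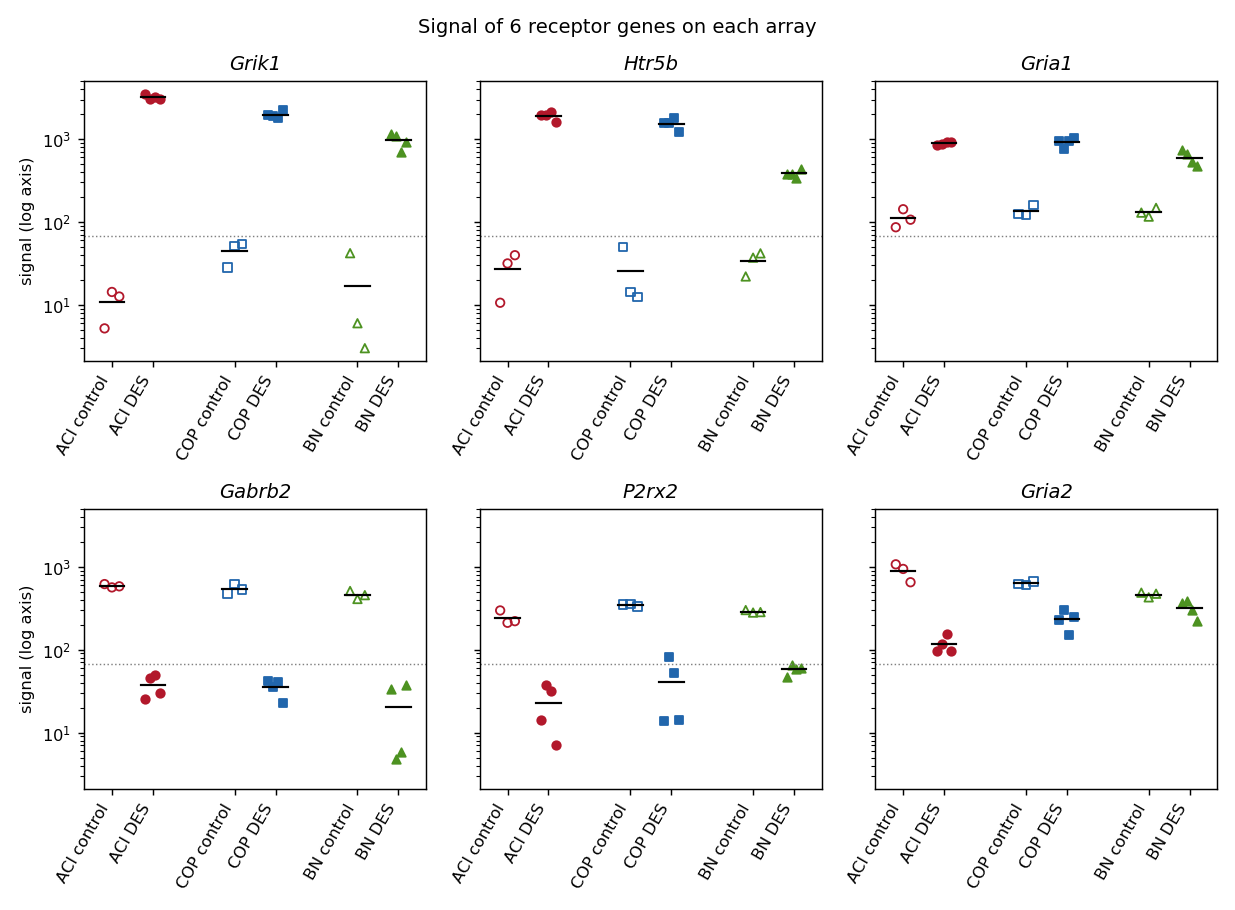
Signal (log axis) of 3 genes that rose and 3 that fell, on each array of the 6 groups. Open symbols are control arrays, filled symbols DES arrays, short lines group means and the dotted line the near-floor signal of 67. Grik1 and Htr5b pass from below the dotted line to above it in each strain, and Gabrb2 passes the other way.

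GABA-A receptors are chloride channels that open when GABA binds, and 11 of their 16 genes were tested. ACI rats had 1 rise and 4 falls, COP rats 3 rises and 4 falls, and BN rats 2 rises and 2 falls. The opposite extremes were Gabra2, an alpha subunit that rose, and Gabrb2, a beta subunit that fell. Gabrb2 read 618, 564 and 581 in the ACI controls and 25.7, 45.6, 49.5 and 29.8 in the ACI DES rats. In COP it read 478, 620.2 and 529.5 against 41.3, 35.2, 41.1 and 22.9. In BN it read 510.2, 408 and 454 against 33.4, 4.8, 5.8 and 37.3. All DES arrays were near the floor and no control array was. The log2 change was -3.52 (SE 0.29), -3.46 (SE 0.29) and -3.84 (SE 0.29) in ACI, COP and BN, with adjusted p values of 1.4e-09, 3.0e-09 and 1.5e-09. All DES readings lie near the floor, so the size of the fall is limited by it, and the strain comparison cannot show equal falls. No strain difference was called, and the 95% intervals ran from -0.54 to 1.17 for ACI minus BN, from -0.91 to 0.80 for ACI minus COP and from -0.48 to 1.23 for COP minus BN. The exact permutation test gave p = 0.0286 in each strain for Gabrb2 too, which again adds no support beyond the separate readings.

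Gabra2 belongs to a group of GABA-A genes that lie side by side in the rat annotation (GRCr8), in the order Gabrb1, Gabra4, Gabra2 and Gabrg1, with 1 other protein-coding gene between Gabra4 and Gabra2. This grouping was looked up after the values were seen. The neighbours did not move together. Gabra2 read 2.0, 2.2 and 11.8 in the ACI controls and 241, 331, 399 and 257 in the ACI DES rats, a rise of 3.93 (SE 0.30) on the log2 scale. It rose by 4.40 (SE 0.30) in COP, from readings of 17.8, 3.9 and 3.7 to 503, 405, 554 and 478. The BN controls read 1.6, 2.0 and 3.0 and the BN DES rats 88.6, 88.1, 131 and 42.0, a rise of 2.43 (SE 0.30), and 1 BN DES array remained below 67. Its neighbour Gabrb1, a beta subunit, read 581, 672 and 861 in the ACI controls and 116, 48.5, 74.8 and 141 in the ACI DES rats. The Gabrb1 change was -2.76 (SE 0.41) in ACI, -2.29 (SE 0.41) in COP and -1.25 (SE 0.41) in BN. In BN the fall of Gabrb1 lost its call with DES arrays 1 and 2 alone (-0.82, adjusted p = 0.19) and without DES array 4 (adjusted p = 0.086) or control array 1 (adjusted p = 0.15).

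The alpha subunit gene Gabra4 fell by 1.17 (SE 0.32) in ACI and by 1.65 (SE 0.32) in COP on the log2 scale, and its change in BN was -0.51 (SE 0.32, adjusted p = 0.24). The gamma subunit gene Gabrg1 rose by 0.72 (SE 0.25) in COP and by 0.83 (SE 0.25) in BN, and its change in ACI was 0.27 (SE 0.25, adjusted p = 0.40). In COP the controls of Gabrg1 read 115, 114 and 105 and the DES rats 204, 171, 218 and 187, so these groups did not overlap. The call for Gabrg1 in BN rested on DES arrays 1 and 2, since with arrays 3 and 4 alone the rise was 0.51 (adjusted p = 0.17), and it was lost without BN control array 2 or BN DES array 1 (adjusted p of 0.052 and 0.05). The COP call of Gabrg1 was lost without any 1 COP control array or COP DES array 3 (adjusted p from 0.05 to 0.071).

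**Figure D3:**
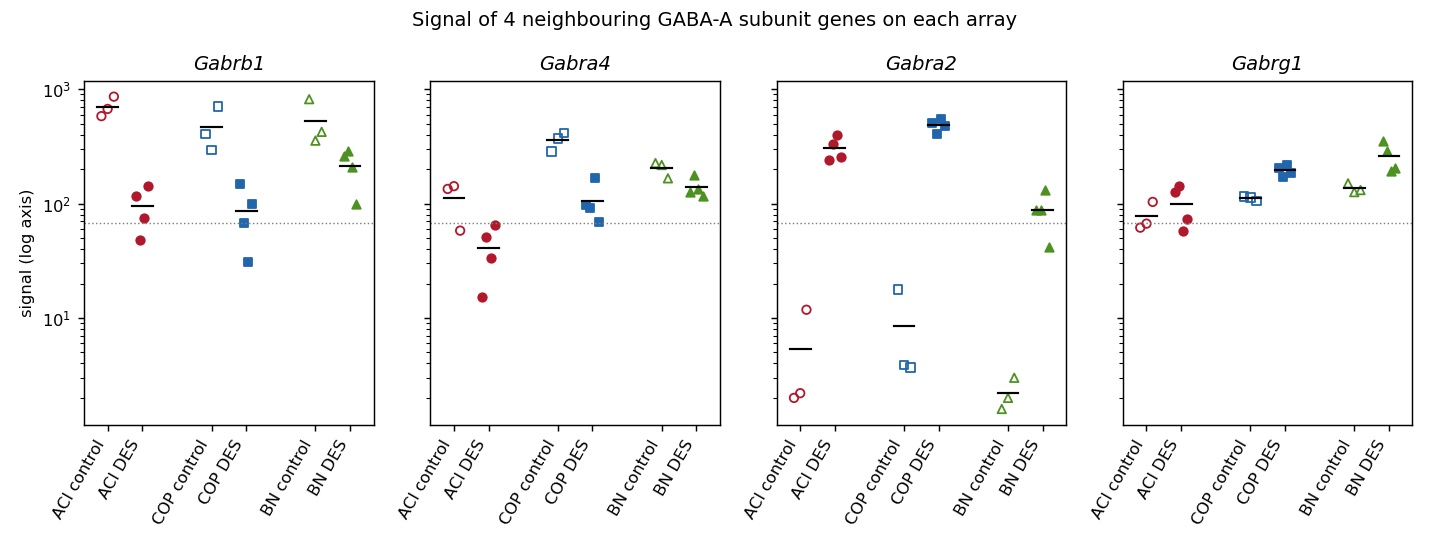
Signal (log axis) of the neighbouring GABA-A subunit genes Gabrb1, Gabra4, Gabra2 and Gabrg1 on each array. Open symbols are control arrays, filled symbols DES arrays, short lines group means and the dotted line the near-floor signal of 67. Gabrb1 goes down with DES while Gabra2 goes from near the floor to means of 307, 485 and 87.4 in ACI, COP and BN.

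GABA-B receptors are G protein-coupled, and Gabbr1 encodes the subunit that binds GABA. Its controls read 1328, 1314 and 1187 in ACI, and the ACI DES rats 1098, 1051, 1028 and 1049. The fall was small, 0.27 (SE 0.11, adjusted p = 0.04) in ACI and 0.30 (SE 0.11, adjusted p = 0.025) in COP, and -0.23 (SE 0.11, adjusted p = 0.11) was measured in BN. This call was lost when every array was centred on its median, with a change of -0.05 (adjusted p = 0.72) in ACI and -0.20 (adjusted p = 0.15) in COP. The 3 probe sets of Gabbr1 did not all give the same call in these strains. It was also lost without any 1 of ACI control arrays 1 and 2 and ACI DES arrays 2, 3 and 4 (adjusted p from 0.067 to 0.13) or of COP control arrays 2 and 3 and COP DES arrays 3 and 4 (adjusted p from 0.053 to 0.12).

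AMPA receptors carry fast glutamate transmission, and their 4 subunit genes were all tested. Gria1 read 86.3, 142 and 106 in the ACI controls and 844, 874, 924 and 910.3 in the ACI DES rats. Its BN controls read 129.6, 116 and 148 and its BN DES rats 739, 656, 529 and 472. The groups did not overlap in any strain, and Gria1 rose by 2.85 (SE 0.17) in ACI, 2.64 (SE 0.17) in COP and 2.05 (SE 0.17) in BN on the log2 scale. Gria2, whose subunit limits calcium entry through the channel, went the other way. Its ACI controls read 1070.0, 941 and 650.5 and its ACI DES rats 96.8, 118, 152 and 95.3. In COP it read 622, 607 and 665 against 226, 304, 151 and 246. In BN it read 487, 428 and 473 against 364, 390.0, 299.9 and 222, so that even in BN no DES array reached a control array. Gria2 fell by 2.77 (SE 0.22) in ACI and 1.42 (SE 0.22) in COP, and its change in BN was -0.54 (SE 0.22, adjusted p = 0.059). With BN DES arrays 3 and 4 alone the BN change was -0.80 (adjusted p = 0.012), and with arrays 1 and 2 alone it was -0.28 (adjusted p = 0.42). Gria3 was lower by 1.08 (SE 0.38) in ACI and 1.62 (SE 0.38) in BN, and Gria4 by 1.16 (SE 0.24) in COP, all of them called. Of the 3 probe sets of Gria4, not all gave the same call in ACI and COP.

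Of the other kainate subunit genes, Grik2 read 230.2, 161 and 172 in the ACI controls and 54.8, 34.0, 67.8 and 54.7 in the ACI DES rats. It fell by 1.58 (SE 0.30) in ACI and by 1.54 (SE 0.30) in COP, with a BN change of -0.69 (SE 0.30, adjusted p = 0.086). Grik5 fell by 0.86 (SE 0.23) in ACI and 0.70 (SE 0.23) in BN, and the BN call was lost without BN control array 1 or 3 or BN DES array 3 or 4 (adjusted p from 0.05 to 0.086). Grik4 fell in BN only among the tests within strains, from readings of 197, 249 and 179 to 69.5, 139, 54.0 and 49.6, a change of -1.33 (SE 0.27). Within the kainate family Grik1 was the only one of the 4 tested genes to rise.

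NMDA receptors need Grin1, their obligatory subunit. Grin1 read 649.5, 556 and 547 in the ACI controls and 874, 939, 987 and 897 in the ACI DES rats. It rose in every strain, by 0.65 (SE 0.14) in ACI, 0.37 (SE 0.14) in COP and 0.70 (SE 0.14) in BN, and the groups did not overlap. The COP call of Grin1 was lost without COP control array 2 or 3 or COP DES array 1 or 2 (adjusted p from 0.063 to 0.20). Grin3a rose in ACI (0.97, SE 0.24). The ACI DES rats read 304, 342, 446 and 374 for Grin3a, against 143, 180.2 and 216 in the ACI controls. Grin2c fell by 1.01 (SE 0.29) in ACI and by 1.35 (SE 0.29) in COP, and its change in BN was -0.13 (SE 0.29). Of the 7 metabotropic glutamate receptor genes 2 were tested and neither was called. One of them, Grm8, had a change of -1.06 (SE 0.77) in ACI and 0.84 (SE 0.77) in BN. Of the 4 glycine receptor genes only Glrb was tested, with a change of 0.85 (SE 0.41, adjusted p = 0.12) in BN.

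Of the acetylcholine receptors, the muscarinic class is G protein-coupled, and both tested genes rose in ACI and COP and 1 in BN. Chrm4 read 25.5, 25.2 and 54.4 in the ACI controls and 139, 117, 146 and 151 in the ACI DES rats. In COP it read 21.6, 35.1 and 46.8 against 128, 119, 94.5 and 143. The BN rats read 12.1, 17.0 and 25.1 against 35, 34.1, 75.4 and 45.7, where most DES arrays remained near the floor. The rise was 1.64 (SE 0.29), 1.46 (SE 0.29) and 0.87 (SE 0.29), and the BN call was lost with BN DES arrays 1 and 2 alone (0.59, adjusted p = 0.21) and without BN control array 1 or 2 or BN DES array 3 (adjusted p of 0.11, 0.063 and 0.089). Chrm3 rose by 1.24 (SE 0.21) in ACI and 1.32 (SE 0.21) in COP, and its change in BN was 0.40 (SE 0.21, adjusted p = 0.16). Nicotinic receptors are channels, and 4 of their 16 genes were tested, of which 2 fell in ACI and COP and 0 in BN. The other tested genes, Chrna7 and Chrnb1, were called in no strain and are named after their values were seen. The muscle-type subunit gene Chrna1 read 360.3, 285 and 212 in the ACI controls and 35.9, 68.9, 15.3 and 55.8 in the ACI DES rats. It fell by 2.40 (SE 0.39) in ACI and 1.94 (SE 0.39) in COP, with -0.91 (SE 0.39, adjusted p = 0.074) in BN. Chrna9 fell by 1.67 (SE 0.38) in ACI and 1.29 (SE 0.38) in COP, and its change in BN was 0.10 (SE 0.38).

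Among 14 serotonin receptor genes, 8 were tested. Besides Htr5b, the channel subunit gene Htr3a rose in 2 strains. Its BN controls read 105, 127 and 88.3 and its BN DES rats 591, 552, 401 and 556, a rise of 2.14 (SE 0.16). The ACI controls read 119, 134 and 116 and the ACI DES rats 219, 219, 222 and 279, a rise of 0.85 (SE 0.16). In COP the controls, at 288, 237 and 217, already stood where the ACI DES rats did, and the DES rats read 286, 288, 275 and 307 (0.22, SE 0.16, adjusted p = 0.29). Control and DES readings of Htr3a were separate in ACI and BN and overlapped in COP. Htr6 rose in BN by 1.90 (SE 0.59), from readings of 9.2, 7.0 and 5.5 to 60.5, 20.8, 116 and 133, with 2 of the 4 DES arrays still near the floor, and lost its call without BN DES array 4 (adjusted p = 0.055). Htr5a fell in COP by 1.60 (SE 0.35). Of 6 alpha adrenergic receptor genes 2 were tested, and Adra1b rose in COP (0.77, SE 0.26), although its control and DES values overlapped and the call was lost without COP control array 3 or COP DES array 1 or 2 (adjusted p of 0.16, 0.062 and 0.061). Neither of the 2 beta adrenergic receptor genes was tested, and the highest reading of Adrb3 on any array was 102.

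P2X receptors are channels opened by ATP, and 4 of their 7 genes were tested. P2rx2 read 297, 211 and 221 in the ACI controls and 14.0, 37.7, 31.8 and 7.1 in the ACI DES rats. In COP it read 352, 353 and 329.8 against 13.7, 82.4, 52.3 and 14.2. In BN it read 300.4, 280.2 and 284 against 46.5, 65.7, 58.8 and 60.3. The groups did not overlap in any strain for any of the 3 probe sets of P2rx2. The log2 change was -2.81 (SE 0.35) in ACI, -2.87 (SE 0.35) in COP and -2.05 (SE 0.35) in BN. The DES means lay near the floor in every strain, which limits the size of these falls. P2rx4 rose by 0.59 (SE 0.12) in ACI and 0.63 (SE 0.12) in COP, with 0.08 (SE 0.12, adjusted p = 0.65) in BN. P2rx6 fell in BN only among the tests within strains (-0.73, SE 0.19). P2X genes moved in both directions in ACI and COP, and in BN 2 fell and 0 rose.

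P2Y receptors are G protein-coupled nucleotide receptors, and 5 of their 7 genes were tested. P2ry12, a receptor for ADP on platelets and microglia, read 217, 181 and 379.7 in the ACI controls and 740.5, 473, 565 and 557 in the ACI DES rats. In COP it read 87.6, 184 and 194 against 763, 1021, 930.3 and 1157. In BN it read 504, 314 and 394 against 913, 871, 981 and 1326. No DES array overlapped the controls of its strain, and the rise was 1.17 (SE 0.25), 2.58 (SE 0.25) and 1.31 (SE 0.25) in ACI, COP and BN. P2ry14, which lies 2 protein-coding genes away from P2ry12, rose by 0.71 (SE 0.26), 0.97 (SE 0.26) and 0.82 (SE 0.26). The ACI call of P2ry14 was lost without ACI control array 2 or ACI DES array 1 or 2 (adjusted p of 0.18, 0.074 and 0.093), and the BN call without BN control array 1 or 3 or BN DES array 4 (adjusted p of 0.066, 0.065 and 0.057). P2ry1 and P2ry2 both fell in each strain. The P2ry2 change was -1.50 (SE 0.44), -1.94 (SE 0.44) and -1.51 (SE 0.44), and that of P2ry1 was -1.46 (SE 0.48), -1.73 (SE 0.48) and -1.81 (SE 0.48). Control means of P2ry1 were only 63.5, 96.1 and 77.5 in ACI, COP and BN. All its DES readings were near the floor, which limits these falls, and in ACI the control mean was near the floor too. The BN controls of P2ry2 read only 70.1, 43.7 and 50.2, so that fall lies near the floor, and with BN DES arrays 1 and 2 alone neither P2ry2 nor P2ry1 was called in BN (adjusted p = 0.088 for each). The BN fall of P2ry2 was also lost without BN control array 1 (adjusted p = 0.054), and the ACI fall of P2ry1 without ACI control array 2 or ACI DES array 1 (adjusted p of 0.067 and 0.052).

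Markers of other cells moved as well. Of 10 tested leukocyte and macrophage markers, 9 (ACI), 10 (COP) and 5 (BN) rose with DES and 0 fell. Their summed signal was 2712 to 3211 in ACI controls and 12611 to 14566 with DES, 2098 to 3028 and 11940.3 to 16072 in COP, and 4363 to 5118 and 6912 to 11338 in BN. These markers moved with P2ry12, and their part in its rise was not tested. Platelet markers were called in no direction in COP or BN, and 1 of 3 rose and 1 fell in ACI. Of 6 gonadotroph markers 5 (ACI), 5 (COP) and 4 (BN) fell, and 1, Cga, rose in BN (0.74, adjusted p = 0.0029), with Lhb means of 16642 and 229.9 in the ACI controls and DES rats. Of 8 neural lobe, glia and nerve markers, 5 (ACI), 5 (COP) and 4 (BN) fell with DES, and their summed signal went from 5854 to 6064 in the ACI controls to 2138 to 2798 with DES. Folliculostellate markers fell for 5 of 6 in every strain. Of 4 corticotroph and melanotroph markers 3 (ACI), 3 (COP) and 2 (BN) fell, with medians of -2.12, -2.10 and -0.89, and 1 rose in each strain. Of 8 mural cell and fibroblast markers 3 fell in ACI, with Dcn at -4.43 and Lum at -4.69, 3 in COP and 2 in BN, and 2, 2 and 1 rose. Of 6 somatotroph and thyrotroph markers 2 (ACI), 3 (COP) and 1 (BN) fell, and 1, 2 and 2 rose. Among them, the thyrotroph gene Tshb fell by 2.11 in ACI and 1.65 in COP, and its change in BN was 0.15 (adjusted p = 0.55). In ACI and COP these marker falls accompanied those of Gabrb2, Gabrb1, P2rx2, Gria2 and Chrna1, of which Gria2 and Chrna1 were not called in BN. The part of the markers in the receptor falls was not tested. Among 6 lactotroph markers, 2 fell in every strain, Agtr1b and Pou1f1, and 0 (ACI), 1 (COP) and 2 (BN) rose. Prl rose in COP (0.62) and BN (0.77), with 0.40 (adjusted p = 0.076) in ACI. Trhr rose in BN (1.36, adjusted p = 3.7e-06), and its changes of 0.23 in ACI and -0.25 in COP were not called. Drd2 and Esr1 were called in no strain. Prl made up most of the summed lactotroph signal, with up to 68841 on 1 array.

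Genes that make or break down transmitters, and proteins that hold receptors in place, were read from lists of their own. Of 9 tested genes of transmitter synthesis and breakdown, ACI rats showed 1 rise and 6 falls, COP rats 1 rise and 5 falls, and BN rats 0 rises and 5 falls. Their median change was -0.89, -0.77 and -0.52, beside -0.13, -0.08 and -0.06 over all genes, of which 32.4%, 28.1% and 22.6% fell. Gls2, a glutaminase that forms glutamate, rose by 1.43 (SE 0.14) in ACI and 1.74 (SE 0.14) in COP, with 0.29 (SE 0.14, adjusted p = 0.11) in BN. Maoa and Maob, which oxidize monoamines such as serotonin and noradrenaline, fell in all strains. For the strains in the order ACI, COP, BN the change was -1.27, -1.42 and -0.55 for Maoa and -1.33, -0.84 and -0.52 for Maob. Of 23 tested scaffold and auxiliary genes, ACI rats showed 3 rises and 8 falls, COP rats 4 rises and 6 falls, and BN rats 4 rises and 4 falls. Their median of -0.15, -0.06 and 0.09 was near that of all genes. Cnih2, an auxiliary protein of AMPA receptors, fell by 1.74 (SE 0.19), 1.57 (SE 0.19) and 1.39 (SE 0.19). Lynx1, a modulator of nicotinic receptors, fell by 2.26 (SE 0.23), 2.11 (SE 0.23) and 2.25 (SE 0.23). Gabarap, which binds GABA-A receptors and also serves autophagy, rose by 0.93 (SE 0.10), 0.81 (SE 0.10) and 0.72 (SE 0.10).

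Strains were next compared in their response to DES. Between ACI and BN, 9 of the 55 genes were called, 6 with a higher and 3 with a lower log2 change in ACI (16.4%, against 17.8% of all genes, 8.28% higher and 9.49% lower). Between COP and BN 4 were called (7.27%, against 6.95%, 4.02% higher and 2.93% lower), and between ACI and COP 2 (3.64%, against 0.647%, 0.204% higher and 0.443% lower). These comparisons share the arrays of a strain and are not independent of each other. The response of Htr5b was larger in ACI than in BN by 2.50 (95% interval 1.74 to 3.27, adjusted p = 7.9e-05) and larger in COP than in BN by 2.29 (1.53 to 3.06, adjusted p = 0.0005). It was not called between ACI and COP (0.21, interval -0.55 to 0.97). Gabra2 differed by 1.49 (0.61 to 2.38) between ACI and BN and by 1.96 (1.08 to 2.85) between COP and BN. Both genes thus responded less in BN than in either of the other strains.

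Grik1 separated ACI from both other strains. Its response was larger in ACI than in BN by 1.86 (1.06 to 2.66, adjusted p = 0.0022) and larger than in COP by 1.87 (1.07 to 2.67, adjusted p = 0.025), with -0.01 (-0.81 to 0.79) for COP minus BN. Control values near the floor enter these differences, and when 1 instead of 16 was added to the signal neither was called (adjusted p = 0.12 and 0.089). The ACI and COP difference was also lost without ACI control array 1 or 2, ACI DES array 3, COP control array 2 or 3 or COP DES array 3 (adjusted p from 0.05 to 0.081). The DES means themselves were 3197 (SD 234), 1965 (SD 181) and 972 (SD 206) in ACI, COP and BN, without overlap between the strains. Gria2 fell further in ACI than in BN by 2.23 (interval -2.87 to -1.60, adjusted p = 3.6e-05) and further than in COP by 1.35 (-1.98 to -0.71, adjusted p = 0.046). The second of these Gria2 differences was lost on leaving out any 1 of the 14 ACI and COP arrays except ACI DES array 3, COP DES array 3 and ACI control array 3 (adjusted p from 0.069 to 0.14). Htr3a ran the other way, with a larger rise in BN than in ACI (difference -1.29, adjusted p = 0.00053) and than in COP (-1.92, adjusted p = 2.1e-05). P2ry12 rose more in COP than in BN (1.26, adjusted p = 0.039), a call that was lost with BN DES arrays 3 and 4 alone (adjusted p = 0.062) and without any 1 of COP control array 1, COP DES arrays 2, 3 and 4, BN control arrays 1 and 3 and BN DES arrays 1, 2 and 3 (adjusted p from 0.053 to 0.13). Of the 10 leukocyte and macrophage markers 8 also had the larger response in COP than in BN (median difference 1.42). The same number responded more in ACI than in BN (median difference 1.30), where the P2ry12 difference was -0.14 (interval -0.88 to 0.59). The part of these markers in the P2ry12 values was not tested. Grik4 differed between ACI and BN by 1.48 (0.68 to 2.27, adjusted p = 0.012), with an adjusted p of 0.061 when BN DES arrays 1 and 2 alone were used. The remaining calls between ACI and BN were Chrna9 (-1.78), Gria1 (0.80) and P2rx4 (0.52).

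**Figure D4:**
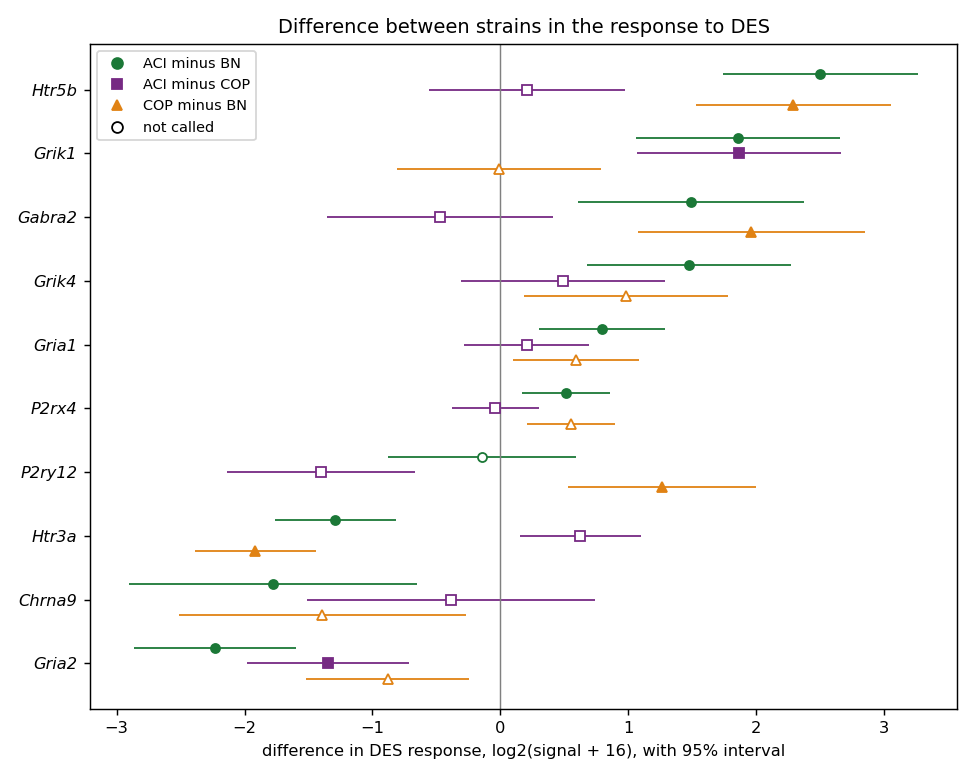
Strain differences in DES response for the 10 receptor genes with at least 1 call. The horizontal axis is the difference of the 2 log2 changes with its 95% interval, for ACI minus BN (circles), ACI minus COP (squares) and COP minus BN (triangles), and open symbols were not called. Htr5b and Gabra2 lie to the right in both comparisons with BN, and Htr3a to the left.

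Few receptor genes differed between strains without DES. Between ACI and BN controls 4 of the 55 were called (7.27%, against 7.44% of all genes, 3.85% higher and 3.59% lower), all higher in ACI. They were Grin3a by 1.15 (SE 0.26), Gria4 by 1.03 (SE 0.25), Gria2 by 0.89 (SE 0.23) and Grin1 by 0.52 (SE 0.15). The Gria2 and Grin1 calls were lost without ACI control array 1 or 2 or BN control array 2 or 3 (adjusted p from 0.051 to 0.18), and the Gria4 call without BN control array 2 (adjusted p = 0.086). Between ACI and COP controls 4 were called (7.27%, against 1.19%, 0.656% higher and 0.536% lower), with P2rx4 higher in ACI by 0.89 (SE 0.12) and Gabra4, Htr3a and Grik1 lower in ACI. For Grik1 both control means were near the floor, and the call (adjusted p = 0.048) was lost without any ACI control array or COP control array 2 or 3 (adjusted p from 0.083 to 0.24). The Gabra4 call was lost without ACI control array 3 or COP control array 2 or 3 (adjusted p of 0.097, 0.077 and 0.078), and that of Htr3a without COP control array 1 (adjusted p = 0.051). Between COP and BN controls 6 were called (10.9%, against 6.04%, 2.78% higher and 3.25% lower), among them P2rx4, lower in COP by 0.91 (SE 0.12), Htr3a, higher in COP by 1.10 (SE 0.17), and P2ry12, lower in COP by 1.34 (SE 0.27). In the same comparison 6 of the 10 leukocyte and macrophage markers were lower in COP (median -0.87), and of 8 neural lobe, glia and nerve markers 2 were higher, Rax by 1.64 (SE 0.42) among them, and 1 lower. The part of these markers in the receptor differences was not tested. P2rx4 read 350.1, 296 and 358 in the COP controls, below every ACI control reading (667, 682 and 558) and every BN control reading (603, 649 and 667). With DES its means were 966, 526 and 678 in ACI, COP and BN. Probe sequences were not available, so the part of strain differences in the sequence under the probes was not tested, here or in the other strain comparisons.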

How the data were processed

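Anterior pituitary RNA of 21 male rats had been hybridized in 1 colour to Affymetrix Rat Genome 230 2.0 arrays. The authors deposited 1 linear intensity per probe set and array, and the trimmed mean of every array (2% left out at each end) was 500.1 to 500.2. Which software made the signals is not given in the sources used here. By the design text all arrays are biological replicates, but the sample notes name 2 independent replicates for 3 control arrays and 3 for 4 DES arrays, so p values measure the spread between arrays. Precision depends on the few arrays per group.

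Groups came from the sample titles. The members, lists and naming rule were chosen with earlier results of these data known. Genes were named from the platform annotation, and all 102 member genes matched a RefSeq entry (GRCr8). Signals were converted to log2 after 16 was added. Of 31042 probe sets, 57 Affymetrix control probe sets having been left out, 21858 read above the 40th percentile of signals on 3 or more arrays. They were fitted with 6 group means in limma 3.58.1 (R 4.3.3; lmFit, contrasts.fit and eBayes with a trend), and each comparison had its own Benjamini-Hochberg adjustment. Tests were two-sided and called at an adjusted p under 0.05. The probe set with the highest mean stood for its gene. The code was tested on simulated data. Exact permutation tests used scipy 1.17.1 (Python 3.11.15).

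Named genes were up to 12 called, non-overlapping rises and falls per strain, up to 5 calls per strain comparison, the gene of highest mean signal in each family, Grik1 and Gabrb2, and up to 4 genes of each other list. Beyond this rule, the markers Cga, Drd2, Esr1 and Rax were named after their values were seen, like the other genes said above to be so named. The split of BN DES arrays and the look-up of neighbouring genes were added after the data were seen. Alternatives were no filter, the 60th percentile, a filter on the mean, 1 or 64 added to the signal, quantile normalization, median centring, no variance trend, only the groups compared, the replicate number or number set as a block, arrays 1 and 2 or 3 and 4 only, the probe set of largest spread, and each array left out. Same-numbered arrays were checked for pairing and were not treated as pairs.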

Additional observations from a re-analysis of the deposited data

Results flagged for a closer look

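In 111 groups of 4 DES arrays, 1 array stood apart from the other 3 in 5, by a gap above Dixon's 95% critical value, as a share of the group's range on the log2(signal + 16) scale, and chance gives about 1 in 20. The highest array did so for Adrb3 in BN (0.893 of the range), Htr3a in ACI (0.944) and P2rx6 in ACI (0.861), and the lowest for Gabrr1 in COP (0.894) and Htr5a in BN (0.943). For Htr3a the ACI DES readings were 219, 219, 222 and 279, all above the ACI controls.

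The response to DES differed between strains by limma's test of the difference for 10 of the tested members. The differences among the 5 smallest adjusted p values of each comparison follow. ACI minus BN was 2.50 for Htr5b, 1.86 for Grik1, 1.48 for Grik4, -1.29 for Htr3a and -2.23 for Gria2. ACI minus COP was 1.87 for Grik1 and -1.35 for Gria2. COP minus BN was 2.29 for Htr5b, 1.96 for Gabra2, 1.26 for P2ry12 and -1.92 for Htr3a. For COP minus BN, 8 of 10 leukocyte and macrophage markers also had the larger response in COP, as P2ry12 did. The same number responded more in ACI than in BN, where P2ry12 was not called. The part of these markers was not tested. Control readings near the floor enter the Grik1 differences, beside DES means of 3197, 1965 and 972 in ACI, COP and BN.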

How the results depend on the processing

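Over 105 named gene results and 2247 alternatives, none reversed, 2026 kept direction and call, 196 lost the call, 7 gained it and 18 uncalled values changed sign. The counts of called members depended most on how many arrays were used. With arrays numbered 3 and 4 only they were 12 for ACI, 14 for COP and 10 for BN rats, 0, 0 and 2 between control strains (ACI and BN, ACI and COP, COP and BN), and 3, 0 and 1 for the differences in response in that order. Controls then have 1 array per strain, assumed to vary like the other groups. With a filter at the 60th percentile, which tests fewer genes, they were 17, 16 and 11. These counts have a smaller base, and the 65 named results still tested there all kept direction and call. BN DES arrays 1 and 2 alone gave 13 calls in BN, and arrays 3 and 4 alone gave 9 for the COP and BN difference. Leaving out 1 array at a time gave 23 to 26 (ACI), 22 to 29 (COP) and 15 to 21 (BN) within strains, 1 to 5, 2 to 3 and 4 to 6 between control strains, and 5 to 10, 0 to 2 and 3 to 6 for the differences. The single call left between ACI and BN controls was without BN control array 2, and 0 were left between ACI and COP responses without ACI control array 1 or 2 or COP control array 2 or 3. Each of the 2 ACI and COP response calls was lost in some settings, and 1 remained with no filter, 1 added before log2, quantile normalization, median centring, no variance trend or arrays numbered 1 and 2 only. Between ACI and COP controls 2 were called with only the groups compared, and between ACI and BN controls 2 with the probe set of largest spread. Between COP and BN controls 10 were called with only the groups compared, the replicate block or the number set as block. With the replicate number as a block the counts were 27, 30 and 21 within strains, and the labels do not say what the number stands for. Same-numbered arrays of different groups deviated together with a mean r of 0.13 over 48 pairs, of which 32 exceeded 0.1. For arrays of unlike number the mean r was -0.045. Averaged by number over the arrays of other groups, the correlation was highest for the array's own number in 13 of 21 arrays. The cause of these shifts was not tested. Readings below 67 have little order, which limits Grik1, Htr5b, Gabra2 and Chrm4 in controls, Gabrb2 with DES, and P2ry1, P2ry2 and Htr6. It also limits P2rx2 and Gria3 with DES, whose DES means were below 67 in every strain. The DES means of Chrna1, Chrna9 and Grik2 in ACI and COP, Gabra4 in ACI, and Htr5a and Grin2c in COP were below 67 too.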
